A study of Mus musculus with 2 samples.

Results

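Interstitial stroma nuclei of the embryonic mouse kidney were examined in single-nucleus ATAC-seq (snATAC-seq), which uses a transposase to tag accessible DNA and a droplet barcode to tell nuclei apart. The members were chosen by their own counts. Among barcodes with 4000 to 100000 counts in peaks, peaks over the gene body or the 2 kb upstream of Pdgfra, Col1a1, Col3a1, Foxd1, Pdgfrb, Col1a2, Ebf1 or Dlk1 were taken as marker peaks. A member had a count for at least 4 of these 8 genes and a share of marker counts in all its counts within the top 15% of both libraries pooled. This gave 1319 members of 20924 nuclei (6.30%). They comprised 688 of 9270 nuclei in Enl-WT (7.42%, exact 95% binomial interval 6.90 to 7.97) and 631 of 11654 in Enl-T1 (5.41%, 5.01 to 5.84).

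Both groups were kidneys of E15.5 embryos, staged in days of embryonic development, on a B6 background, with 1 library each. Enl-WT embryos were Enl+/+ Wt1GFPCre/+, and Enl-T1 embryos were Enl flox-T1/+ Wt1GFPCre/+, in which Cre switches on a Wilms tumour-associated mutant form of ENL, a chromatin reader encoded by Mllt1, from 1 allele. Both groups carried the Wt1GFPCre knock-in, so 1 copy of Wt1 was inactive in the controls as well, and Cre was driven from the Wt1 promoter, which is active in the progenitors of nephron and stroma but was not measured nucleus by nucleus here. How many embryos entered each library was not given in the sources used here. With 1 library a group, no difference between Enl-WT and Enl-T1 has a replicate check. No test was made, and every 95% interval covers counting error only. Accessibility at Mllt1 does not read the mutation. It stood at 58.8 CPM for Enl-WT and 61.1 CPM for Enl-T1 in the members.

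The kidney interstitium descends from Foxd1-expressing progenitors at the edge of the nephrogenic zone and matures into cortical, medullary and perivascular cells. These cells lay down collagen matrix, carry platelet-derived growth factor receptors, and exchange Wnt, retinoic acid and growth factor signals with nephron progenitors and the ureteric tree. ATAC-seq counts report how open the chromatin at a gene is, which is not its RNA level.

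The nuclei that the rule left out for too few markers had lower median depths than the members. Nuclei in the top 15% by share that had a count for fewer than 4 markers were left out, namely 450 Enl-WT and 1371 Enl-T1 nuclei, and their median depths were 11382 and 7482 counts. Without the need for 4 markers, 12.3% of Enl-WT nuclei (11.6 to 13.0) and 17.2% of Enl-T1 nuclei (16.5 to 17.9) were past the share, so the order of the libraries turned. A count for at least 4 markers was found in 15.48% of the Enl-WT nuclei and 6.90% of the Enl-T1 nuclei. The libraries differed in depth, with a median of 14810 counts a member in Enl-WT and 9330 in Enl-T1, and its part in the member shares was not tested. The 5 nuclei just inside the threshold had 8.44 to 8.47 marker counts per 10000 counts, and the 5 with at least 4 markers just outside it had 8.41 to 8.43. The median member had 10.9 per 10000 in Enl-WT and 12.8 in Enl-T1, against 3.17 and 3.45 in the other nuclei.

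The 8 markers contributed unequally, and their values only describe the choice. Ebf1, a transcription factor gene spanning 391 kb, supplied 33.7% (Enl-WT) and 34.8% (Enl-T1) of the members' marker counts. Dlk1, an imprinted membrane ligand, supplied 1.57% and 1.65%. Col1a1, which encodes the main fibrillar collagen chain, had a count in 65.1% of Enl-WT and 65.8% of Enl-T1 members, and still in 22.7% and 21.7% of the other nuclei. Foxd1, the transcription factor of stromal progenitors, had a count in 41.0% and 33.4% of members. The other nuclei thus still held nuclei with open stromal genes. Of the barcode sequences, 169 occurred in both libraries, among them those of 14 Enl-WT and 10 Enl-T1 members, and 1 was a member in both. Of the members, 595 in Enl-WT and 562 in Enl-T1 remained without 3 sub-clusters that carried genes of nephron, ureteric or endothelial cells. These 3 are described with the sub-clusters.

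Chromatin regions open in the members are shown first as sequence, because they are the objects that were counted. Counts were summed over 110706 shared regions, made by joining peaks of both libraries that overlap, and scaled to a total of 1000000 over all shared regions in the same nuclei (CPM). Of 39512 regions outside the marker genes' windows with at least 100 counts in the members, 6001 (15.2%) were over 2-fold higher in members than in other nuclei in both libraries. The minimum was set on the members' own counts, so this share is a description. The 4 regions with the largest lower value of the 2 libraries, among those with at least 200 counts, were singled out after their values were seen. An intronic region of Daam2, a formin of Wnt signalling, at chr17:49533807-49535298 had 22.2 CPM in members and 5.40 in other nuclei in Enl-WT, and 21.7 and 5.45 CPM in Enl-T1, a log2 difference of 2.05 (1.71 to 2.37) in Enl-WT, with 1.99 (1.57 to 2.40) in Enl-T1. An intergenic region 583 kb from the start of Slitrk6 at chr14:110171239-110172284 had 20.2 CPM in members and 3.35 in other nuclei in Enl-WT, and 13.3 and 3.37 CPM in Enl-T1, or 2.60 (2.22 to 2.96) in Enl-WT, with 1.99 (1.44 to 2.50) in Enl-T1.

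Both remaining regions were intergenic as well. The region at chr11:44155994-44156881, 243 kb from the start of Il12b, had 19.1 CPM in members and 4.57 in other nuclei in Enl-WT, and 18.0 and 4.61 CPM in Enl-T1, or 2.06 (1.70 to 2.41) in Enl-WT, with 1.98 (1.52 to 2.42) in Enl-T1 on the log2 scale. The region at chr6:136884343-136885311, 8.52 kb from Mgp, which encodes a matrix protein that restrains calcification, had 19.1 CPM in members and 4.13 in other nuclei in Enl-WT, and 18.4 and 4.71 CPM in Enl-T1, or 2.21 (1.84 to 2.57) in Enl-WT, with 1.95 (1.49 to 2.40) in Enl-T1. The middle 300 bases of these regions (GRCm38, forward strand, from the RefSeq assembly) follow, with capitals marking letters of the searched motifs given with the motif results.
Daam2 intron, chr17:49534403-49534702: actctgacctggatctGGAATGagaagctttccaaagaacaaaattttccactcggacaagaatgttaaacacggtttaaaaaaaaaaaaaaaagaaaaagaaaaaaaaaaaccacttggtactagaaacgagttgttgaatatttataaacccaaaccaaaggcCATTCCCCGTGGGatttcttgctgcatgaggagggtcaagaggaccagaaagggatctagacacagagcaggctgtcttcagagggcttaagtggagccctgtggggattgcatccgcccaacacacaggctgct
Slitrk6 side, chr14:110171612-110171911: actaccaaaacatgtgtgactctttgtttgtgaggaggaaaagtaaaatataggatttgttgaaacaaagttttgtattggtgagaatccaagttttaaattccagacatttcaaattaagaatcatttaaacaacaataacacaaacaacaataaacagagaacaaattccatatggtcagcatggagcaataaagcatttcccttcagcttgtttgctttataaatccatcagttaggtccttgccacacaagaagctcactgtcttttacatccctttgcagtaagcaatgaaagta
Il12b side, chr11:44156288-44156587: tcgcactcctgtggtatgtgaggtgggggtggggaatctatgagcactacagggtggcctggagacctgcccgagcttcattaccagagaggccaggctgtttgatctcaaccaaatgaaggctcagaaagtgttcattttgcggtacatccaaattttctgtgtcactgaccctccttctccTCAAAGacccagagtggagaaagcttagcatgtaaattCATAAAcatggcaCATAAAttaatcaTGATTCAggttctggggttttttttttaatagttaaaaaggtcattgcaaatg
Mgp side, chr6:136884678-136884977: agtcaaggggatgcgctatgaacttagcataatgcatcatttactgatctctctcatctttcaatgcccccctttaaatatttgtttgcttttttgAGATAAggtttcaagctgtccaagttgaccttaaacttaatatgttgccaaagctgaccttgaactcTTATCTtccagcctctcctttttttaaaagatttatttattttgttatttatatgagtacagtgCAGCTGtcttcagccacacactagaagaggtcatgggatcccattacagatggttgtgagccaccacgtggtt

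The stromal label was checked with genes that the rule did not use. Over 13724 protein-coding genes with at least 200 counts in the members, 311 (2.27%) were over 1.5-fold higher in members than in other nuclei in both libraries and 412 (3%) were over 1.5-fold lower, each gene summed over its body and the 2 kb upstream. The minimum was again set on the members' own counts, so these shares are a description. Without the 3 sub-clusters that carried genes of other lineages, 371 genes were higher. Of 16 further stromal genes, 5 were past the fold upward and 0 downward, with a median log2 difference of 0.55 in Enl-WT and 0.45 in Enl-T1. The medians over all genes were -0.05 and -0.02. Dcn, which encodes the collagen-binding proteoglycan decorin, went from 16.1 CPM in other nuclei to 42.2 CPM in members in Enl-WT, and from 18.6 to 38.2 CPM in Enl-T1, a log2 difference of 1.39 (1.16 to 1.62) in Enl-WT, with 1.03 (0.73 to 1.32) in Enl-T1. Twist1, a mesenchymal transcription factor, went from 20.5 CPM in other nuclei to 44.3 CPM in members in Enl-WT, and from 20.1 to 37.6 CPM in Enl-T1, or 1.10 (0.88 to 1.32) in Enl-WT, with 0.91 (0.61 to 1.20) in Enl-T1. With every nucleus thinned to 4000 counts, Dcn had a count in 11.8% of members and 4.61% of other nuclei in Enl-WT, and 10.9% and 5.16% in Enl-T1 (without thinning, 23.1% and 9.31% in Enl-WT, and 15.7% and 7.59% in Enl-T1). Tcf21, a transcription factor of stroma and podocytes, differed by 0.92 (0.64 to 1.18) in Enl-WT, with 0.68 (0.33 to 1.02) in Enl-T1 and Lum, another small proteoglycan, by 1.05 (0.65 to 1.42) in Enl-WT, with 1.33 (0.96 to 1.68) in Enl-T1. Meis2, which is also used by other kidney lineages, did not follow them, at -0.11 (-0.21 to -0.01) in Enl-WT, with -0.21 (-0.33 to -0.08) in Enl-T1.

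**Figure D1:**
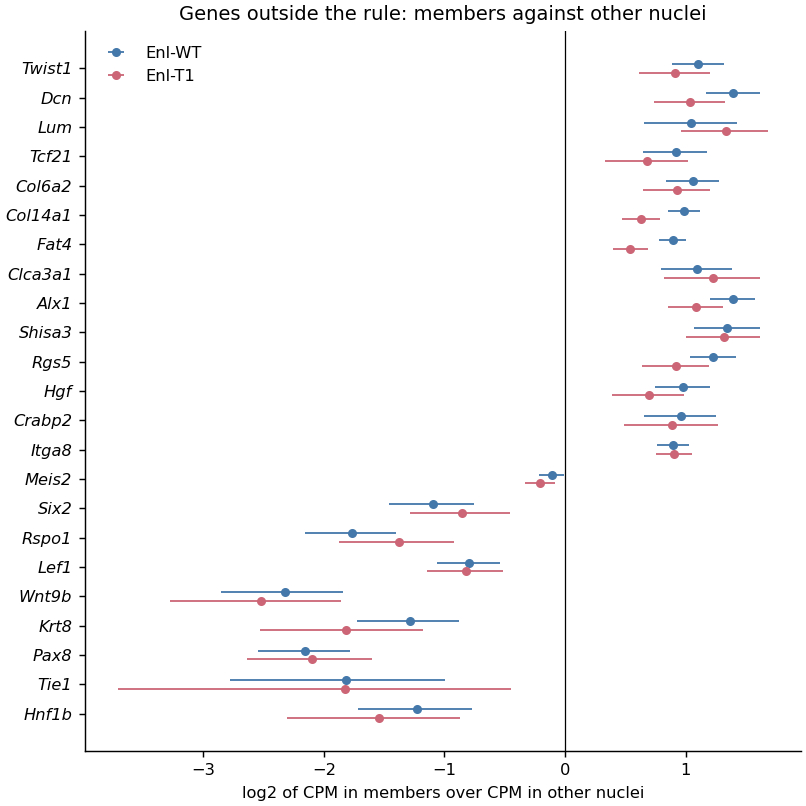
Log2 of CPM in members over CPM in other nuclei (x axis) for 23 genes outside the rule (y axis), with 1 point a library and bars for the exact 95% interval of counting error. Stromal genes such as Dcn, Twist1 and Alx1 lie to the right in both libraries, and markers of other lineages such as Pax8, Wnt9b and Tie1 lie to the left.

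Matrix genes formed the clearest group. Of 15 matrix genes outside the rule, 7 were over 1.5-fold higher in members in both libraries and 0 lower, with medians of 0.76 and 0.58. The list shares Dcn, Lum, Postn, Col5a2 and Col6a3 with the stromal list. Col6a2, a chain of microfibrillar collagen VI, differed by 1.06 (0.83 to 1.28) in Enl-WT, with 0.93 (0.64 to 1.20) in Enl-T1 and Col14a1, a collagen that sits on fibrils, by 0.99 (0.85 to 1.11) in Enl-WT, with 0.63 (0.47 to 0.79) in Enl-T1. Eln, which encodes elastin, differed by 0.77 (0.59 to 0.94) in Enl-WT, with 0.74 (0.53 to 0.94) in Enl-T1. Tnc, the glycoprotein tenascin C, was the lowest of the list at -0.01 (-0.21 to 0.19) in Enl-WT, with -0.29 (-0.58 to -0.01) in Enl-T1.

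Genes of the interstitial zones did not all go the same way, and how many nuclei belonged to each zone was not measured. Among 7 medullary stroma genes, 2 were past the fold upward and 2 downward. Alx1, a homeodomain factor of medullary stroma, differed by 1.39 (1.20 to 1.57) in Enl-WT, with 1.09 (0.86 to 1.31) in Enl-T1 and Shisa3, an inhibitor of Wnt and Fgf signalling, by 1.34 (1.07 to 1.61) in Enl-WT, with 1.32 (1.00 to 1.62) in Enl-T1. Wnt4 and Lef1, which the nephron lineage also uses, were lower at -0.65 and -0.75 and -0.80 and -0.82 in Enl-WT and Enl-T1. Of 7 cortical genes with enough counts, only Clca3a1, at 1.09 (0.79 to 1.39) in Enl-WT, with 1.23 (0.82 to 1.61) in Enl-T1, was past the fold upward in both libraries. Fat4, the protocadherin through which stroma signals to nephron progenitors, was at 0.89 (0.78 to 1.01) in Enl-WT, with 0.54 (0.40 to 0.68) in Enl-T1, which passed the fold in Enl-WT alone. Rspo1, a Wnt agonist, was lower at -1.77 (-2.15 to -1.40) in Enl-WT, with -1.38 (-1.88 to -0.92) in Enl-T1. Rgs5, a pericyte gene, was at 1.23 (1.03 to 1.42) in Enl-WT, with 0.92 (0.64 to 1.19) in Enl-T1, and Ren1, the renin gene, had intervals that included 0, at -0.04 (-0.57 to 0.45) in Enl-WT, with -0.22 (-0.91 to 0.40) in Enl-T1. Of 7 ureteric stroma and smooth muscle genes, Acta2, smooth muscle actin, was past the fold at 0.75 (0.52 to 0.98) in Enl-WT, with 0.68 (0.35 to 0.99) in Enl-T1, and so was Tshz3, a zinc finger factor of ureteric smooth muscle, at 0.74 (0.60 to 0.88) in Enl-WT, with 0.61 (0.42 to 0.78) in Enl-T1, whereas Tagln, a smooth muscle actin-binding protein, was at 0.30 (0.05 to 0.54) in Enl-WT, with 0.25 (-0.08 to 0.57) in Enl-T1.

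Signalling genes of the interstitium differed less from other nuclei. Of 15 retinoic acid genes 1 was past the fold upward in both libraries, the retinoic acid carrier gene Crabp2 at 0.96 (0.65 to 1.25) in Enl-WT, with 0.89 (0.49 to 1.27) in Enl-T1. Aldh1a2, whose product makes retinoic acid in cortical stroma, was at 0.47 (0.31 to 0.63) in Enl-WT, with 0.09 (-0.11 to 0.29) in Enl-T1. Of 15 growth factor genes, Hgf, the ligand of the epithelial receptor Met, was the 1 past the fold upward at 0.98 (0.75 to 1.20) in Enl-WT, with 0.69 (0.39 to 0.98) in Enl-T1, and Rspo1 the 1 past it downward. None of 10 Hedgehog genes was past the fold, with Gli1, a target of the pathway, at 0.49 (0.34 to 0.64) in Enl-WT, with 0.29 (0.10 to 0.48) in Enl-T1. Posterior Hox genes gave 2 of 10 upward, namely Hoxa9 at 0.68 (0.56 to 0.80) in Enl-WT, with 0.59 (0.43 to 0.74) in Enl-T1 and Hoxc13 at 0.75 (0.53 to 0.96) in Enl-WT, with 0.69 (0.39 to 0.98) in Enl-T1. Genes in a Hox cluster lie close together, and some share regions, as Hoxb7 and Hoxb8 did with the same counts.

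The 10 genes with the largest lower value of the 2 libraries were mostly short windows holding 1 or 2 regions. Slc38a5, an amino acid transporter at chrX:8271133-8280179, led with 1.91 (1.51 to 2.29) in Enl-WT, with 1.78 (1.29 to 2.25) in Enl-T1, followed by Gm11232 at 1.65 and 1.77 and Spata45 at 1.56 and 1.62 in Enl-WT and Enl-T1. Aspn, a leucine-rich matrix proteoglycan at chr13:49544443-49567565, had 4 regions and was at 1.65 (1.38 to 1.92) in Enl-WT, with 1.57 (1.21 to 1.92) in Enl-T1. Pi15, a secreted protease inhibitor, was at 2.04 (1.75 to 2.33) in Enl-WT, with 1.41 (1.01 to 1.79) in Enl-T1. Tectb, S100a5, Sucnr1, Slco1a4 and Shisa3 completed the set, with values from 1.32 to 1.86. A region inside a gene can serve another gene, so these names mark places in the genome.

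Ureteric and tubule markers summed to less in members than in other nuclei in both libraries, as did endothelial markers, while podocyte, erythroid and nephron progenitor markers summed to more. Pax8, a nephron and ureteric transcription factor, was at -2.15 (-2.55 to -1.79) in Enl-WT, with -2.098 (-2.64 to -1.60) in Enl-T1, or 12.9 CPM for Enl-WT and 11.6 CPM for Enl-T1. Wnt9b, the ureteric Wnt, was at -2.32 (-2.85 to -1.84) in Enl-WT, with -2.52 (-3.28 to -1.86) in Enl-T1, Six2, the nephron progenitor factor, at -1.10 (-1.46 to -0.76) in Enl-WT, with -0.86 (-1.28 to -0.46) in Enl-T1, and Tie1, an endothelial receptor, at -1.81 (-2.78 to -0.997) in Enl-WT, with -1.82 (-3.71 to -0.45) in Enl-T1. Summed over the 8 ureteric epithelium markers the members had 240.3 CPM for Enl-WT and 229.9 for Enl-T1, against 332 and 335 in other nuclei. For the 8 endothelial markers the sums were 259.8 and 261 CPM in members, against 313 and 284 in other nuclei. Nephron progenitor markers summed to 267 and 319.6 CPM in members and 259.9 and 278 in others, a list in which Itga8, also a stromal integrin gene, was higher in members at 0.89 (0.76 to 1.02) in Enl-WT, with 0.90 (0.75 to 1.06) in Enl-T1. Immune markers summed to 293 and 300.3 CPM in members, against 297 and 281 in other nuclei, and of the members' sums the window of Cx3cr1 gave 243 and 239, while Fcer1g and Tyrobp had 0 counts in shared regions. Erythroid Gata1, Alas2 and Slc4a1, and the crest gene Sox10, also had 0 counts. Podocyte markers summed to more in members than in other nuclei, at 337 against 269 CPM in Enl-WT, with 309 against 245 in Enl-T1. Erythroid markers summed to more in members than in other nuclei, at 72.9 against 66.8 CPM in Enl-WT, with 75.3 against 67.9 in Enl-T1. Tubule markers were at 188 against 279 CPM in Enl-WT, with 191 against 248 in Enl-T1, and crest markers at 27.7 against 52.5, with 27.7 against 47.5. Rules of the same kind for endothelium, ureteric epithelium and nephron progenitors were also passed by 9, 9 and 46 members.

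Clustering split the members into 9 sub-clusters, which are kept by number. Sub-clusters 1 and 2 were the largest, with 283 and 226 members. Sub-cluster 1 was led by Dcn, at 69.9 against 31.7 CPM in the other members. Sub-cluster 2 was led by Nyap2, at 80.5 against 27.9 CPM in the other members, and had the highest Aldh1a2 at 109.5 CPM, with Foxd1 at 104 CPM. Foxd1 was nearly the same in sub-cluster 5, at 103.5 CPM, with 95.7 in sub-cluster 6 and 91.1 in sub-cluster 9. Sub-cluster 3 was led by Kcnd3 and had Alx1 among its top genes, at 128 against 52.4 CPM in the other members. Sub-cluster 4 also had high Alx1 at 104 CPM and was led by Lrriq1, at 151 against 66.9 CPM in the other members. The nephron progenitor marker Eya1 was also among its leading genes, at 48.2 against 24.4 CPM in the other members, and its nephron progenitor sum of 366 CPM, of which Itga8 gave 177, was the highest of the 9, the others being at 216 to 308. Sub-cluster 6 was led by Tagln, at 79.7 against 28.5 CPM in the other members, with Dcn at 83.5 CPM. The genes that lead a sub-cluster were found in the nuclei that were clustered, so they describe it and are not a result about it.

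Sub-clusters 7, 8 and 9, with 89, 42 and 31 members, carried genes that go against the stromal label. Sub-cluster 7 was led by Pax2, a nephron and ureteric factor, at 104 against 26.1 CPM in the other members, with Pax8 at 50.4 and Six2 at 47.5 CPM. The other nephron progenitor markers did not all follow Six2. Itga8 was lower there than in the other members, at -1.20 on the log2 scale. The sum of that list, 275 CPM, was below the 308 of sub-cluster 3 and the 366 of sub-cluster 4. Sub-cluster 8 had Erg, an endothelial factor, among its top genes at 137 against 44.1 CPM in the other members, with Tie1 at 28.8 CPM and Tcf21 at 0. Its renin, mesangial and pericyte sum went the other way. At 550 CPM it was the highest of the 9, the others being at 298 to 468. Sub-cluster 9 was led by Sim1, at 148 against 31.3 CPM in the other members, with Pax8 at 72.9 CPM. Its ureteric epithelium sum of 373 CPM was the highest of the 9, the others being at 168 to 270. Of these markers Wnt9b stood at 27.3 CPM and Wnt7b at 75.2 CPM there. In sub-clusters 1 to 6, Pax8 stood at 3.54 to 10.3 CPM and Tie1 at 0 to 3.31. Without these 3 sub-clusters the member share was 6.42% in Enl-WT and 4.82% in Enl-T1. Whether 2 nuclei shared a droplet was not tested.

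**Figure D2:**
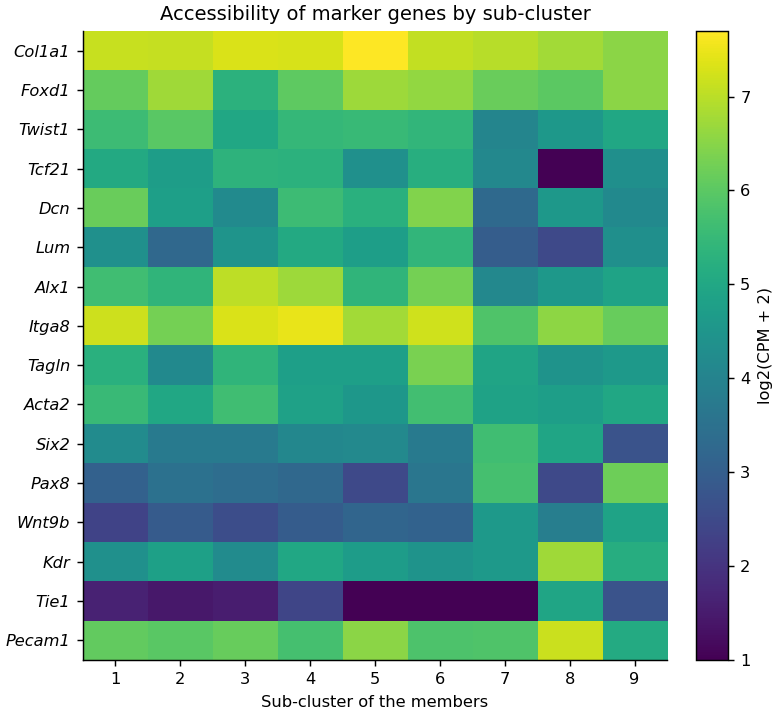
Accessibility of 16 marker genes (rows) in the 9 sub-clusters of the members (columns), as log2 of CPM plus 2, both libraries together. Sub-cluster 8 carries Kdr, Tie1 and Pecam1, sub-clusters 7 and 9 carry Pax8 and have the highest Wnt9b, and Alx1 is highest in sub-clusters 3 and 4.

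The libraries filled the sub-clusters unequally. Sub-cluster 5 held 133 Enl-T1 members and 2 Enl-WT members, that is 0.291% of Enl-WT members (0.0352 to 1.05) and 21.1% of Enl-T1 members (18.0 to 24.5). Its leading genes were Zpld1, at 73.4 against 26.8 CPM in the other members, Sez6l2, Fam155a and the homeobox zinc finger gene Zfhx4, at 76.1 against 31.8 CPM in the other members. Its median depth in shared regions, 8160 counts, was the lowest of the 9, the others being at 9245 to 14126. Sub-cluster 2 held 25.7% of Enl-WT members (22.5 to 29.2) and 7.77% of Enl-T1 members (5.80 to 10.1), and sub-cluster 4 held 9.16% of Enl-WT members (7.11 to 11.6) and 19.7% of Enl-T1 members (16.6 to 23.0). Sub-cluster 3 held 16.3% of Enl-WT members (13.6 to 19.3) and 15.8% of Enl-T1 members (13.1 to 18.9). A sub-cluster that is mostly 1 library may be that library and not a kind of cell. The genotype and the library cannot be told apart here.

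**Figure D3:**
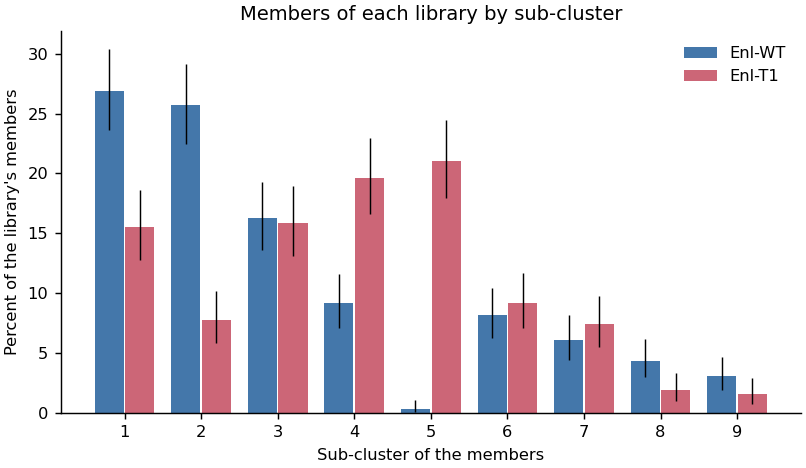
Percent of each library's members (y axis) in each of the 9 sub-clusters (x axis), with bars for the exact 95% binomial interval of counting error. Sub-cluster 5 was 98.5% Enl-T1, and sub-clusters 1 and 2 took larger shares of the Enl-WT members.

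The libraries were also compared without clusters. Of the 15 nearest neighbours of an Enl-WT member, 75.3% were Enl-WT, where Enl-WT made up 52.2% of members, and 75.9% of the neighbours of an Enl-T1 member were Enl-T1, against 47.8%. In ureteric epithelium nuclei the shares were 70.7% and 66.7%, with 53.7% and 46.3% of the set. In nephron progenitor nuclei they were 89.6% and 84.5%, with 64.4% and 35.6%, and in endothelial nuclei 79.5% and 46.4%, with 70.9% and 29.1%. In every set and library the same-library share was above the library's share of the set.

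The next comparison set Enl-T1 against Enl-WT within the members, to ask which genes of the interstitium were more or less open in kidneys with the mutation. Few genes differed by much. Of 13732 genes with at least 200 counts, 123 (0.896%) were over 1.5-fold higher and 140 (1.02%) over 1.5-fold lower in Enl-T1, the median log2 difference was -0.02, and 90% of genes lay between -0.38 and 0.35. Without sub-cluster 5 the counts were 96 and 144, and without sub-clusters 7 to 9 they were 113 and 139. The values rest on 9325554 counts in Enl-WT members and 5711081 in Enl-T1. Peaks were called in each library separately, and a joined region can be covered over a longer stretch in 1 library, which adds counts there. The covered lengths are therefore given beside the named genes, with the value from the 76162 peaks that overlap by at least 80% of both their lengths (peaks of like extent) where these hold at least 200 counts.

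Among genes with at least 400 counts, the 8 highest in Enl-T1 were Vps26b, Ncapd3, Tecta, Atp10b, Ccr7, Slc2a12, Hmgn3 and Axin2. Hmgn3, a nucleosome-binding protein at chr9:83109948-83146685, had 322 counts from Enl-WT and 320 from Enl-T1, or 34.5 CPM for Enl-WT and 56.0 CPM for Enl-T1, a log2 difference of 0.70 (95% interval 0.37 to 1.02). All 5 of its regions were of like extent, which gave 0.66 (0.34 to 0.99). The value was above 0 in all 6 sub-clusters with at least 40 members of each library. Only in sub-cluster 7 did the counting interval leave out 0, at 1.53 (0.11 to 3.18). Hmgn3 was picked for its value in these same members, so its sub-clusters are no separate support. In other nuclei it was at 0.22 (0.13 to 0.32), and in members chosen without Ebf1 it fell short of the fold, at 0.27. Tecta, an extracellular matrix gene known from the inner ear, was at 0.78 (0.45 to 1.11) in members, 1.07 (0.70 to 1.44) in peaks of like extent, and 1.05 (0.95 to 1.15) in other nuclei. Atp10b and Slc2a12, a lipid flippase and a glucose transporter, were at 0.73 (0.34 to 1.12) and 0.72 (0.38 to 1.06) in members and at 0.14 (0.03 to 0.24) and 0.16 (0.08 to 0.24) in other nuclei. Within the same 6 sub-clusters Tecta was above 0 in 3 (-0.83 to 1.51) and Slc2a12 in 4 (-0.52 to 0.96), while Atp10b, Ccr7, Vps26b and Ncapd3 were above 0 in 5 each. Ccr7, a chemokine receptor gene, was at 0.73 (0.35 to 1.11) in members and 0.38 (0.27 to 0.49) in other nuclei. Vps26b and Ncapd3 are neighbours that share their regions, and both stood at 0.81 (0.51 to 1.12), beside 0.56 (0.48 to 0.64) in other nuclei, with 1317 bases covered by Enl-WT peaks and 1657 by Enl-T1 peaks. Their 1 peak of like extent went the other way, with 67 and 28 counts.

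Axin2, a negative feedback gene that Wnt signalling through beta-catenin switches on, had 639 counts from Enl-WT and 634 from Enl-T1, or 68.5 CPM for Enl-WT and 111 CPM for Enl-T1, a log2 difference of 0.69 (95% interval 0.47 to 0.92). It was above 0 in all 6 sub-clusters with at least 40 members of each library, from 0.08 to 0.89. The counting interval left out 0 in sub-clusters 1 and 4 only. Axin2 was picked in the same way as Hmgn3, so its sub-clusters are no separate support either. It was higher in other nuclei too, at 0.39 (0.33 to 0.45), and in the endothelial set at 0.87 (0.48 to 1.25). Most of its counts came from the region over its start at chr11:108919981-108921900, with 463 counts (49.6 CPM) from Enl-WT and 507 (88.8 CPM) from Enl-T1. Peaks there covered 1080 bases for Enl-WT and 1920 for Enl-T1. The 2 Axin2 peaks of like extent, which leave the start out, had 154 and 109 counts and gave 0.16 (-0.37 to 0.68). In these data the higher count at Axin2 and the longer Enl-T1 peak at its start cannot be told apart.

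The 8 lowest in Enl-T1 were Wbp4, Tmem200b, Rtn4r, Zfp583, Zfp644, Il3ra, A530016L24Rik and Nuak2. Wbp4, a splicing factor gene at chr14:79459937-79481520, had 584 counts from Enl-WT and 180 from Enl-T1, a log2 difference of -0.99 (95% interval -1.35 to -0.64), and nearly the same in other nuclei at -0.98 (-1.06 to -0.89), with 1278 bases covered by Enl-WT peaks and 553 by Enl-T1 peaks. Il3ra, a cytokine receptor gene, was at -0.85 (-1.26 to -0.45), beside -1.10 (-1.21 to -0.99) in other nuclei, with 1543 bases covered by Enl-WT peaks and 556 by Enl-T1 peaks. Rtn4r, the receptor of the neurite inhibitor Nogo, was at -0.92 (-1.41 to -0.46) in members and -0.40 (-0.50 to -0.30) in other nuclei, with 4641 bases covered by Enl-WT peaks and 3730 by Enl-T1 peaks. Nuak2, an AMPK-related kinase, was at -0.81 (-1.14 to -0.49) in members, -0.70 (-1.16 to -0.25) in peaks of like extent, and -0.39 (-0.47 to -0.31) in other nuclei. Zfp583, a zinc finger gene, was at -0.90 (-1.38 to -0.44) in members and -0.04 (-0.16 to 0.07) in other nuclei. It was picked for its low value in members, so the gap to other nuclei was shaped by that choice and was not tested. Enl-WT peaks covered more of its region than Enl-T1 peaks did, as given further below. With members chosen without Ebf1 Zfp583 was at -0.15. Tmem200b, Zfp644 and A530016L24Rik were at -0.94, -0.87 and -0.84, beside -0.50, -0.61 and -0.58 in other nuclei, and in peaks of like extent Zfp644 was at 0.31 (-0.81 to 1.40). Within the 6 sub-clusters Wbp4, Tmem200b, Zfp583 and Il3ra were above 0 in 0, Rtn4r, Zfp644 and A530016L24Rik in 1 each, and Nuak2 in 2. These 8 genes were picked for their values in the same members, so the sub-clusters are no separate support.

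**Figure D4:**
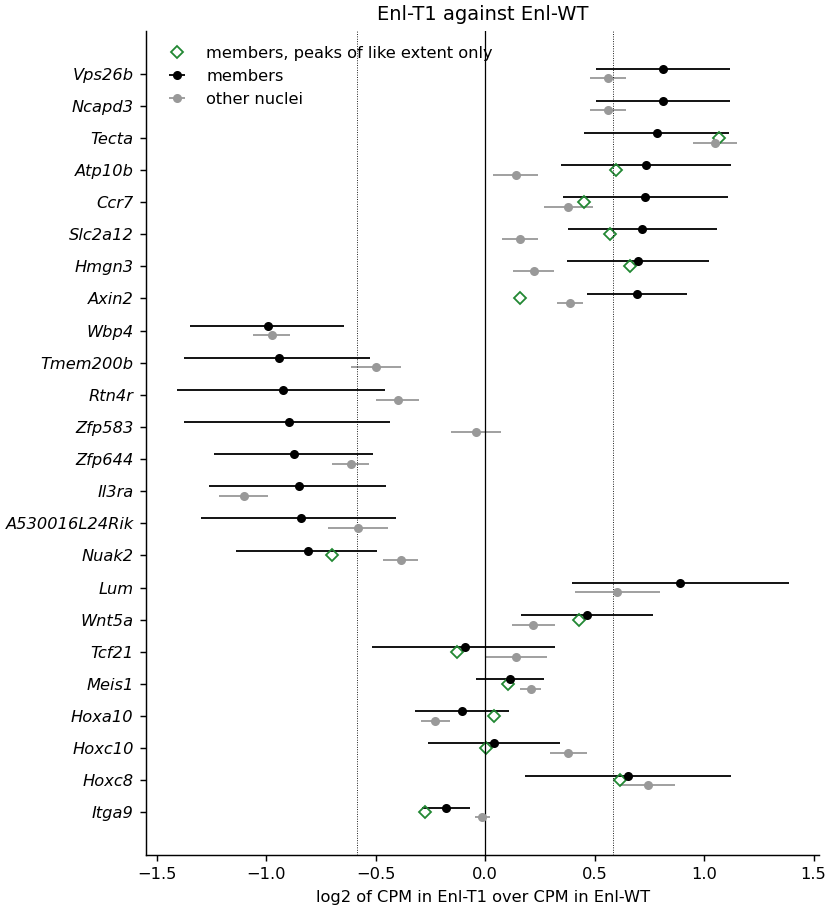
Log2 of CPM in Enl-T1 over CPM in Enl-WT (x axis) for 24 genes (y axis), in members (black) and other nuclei (grey), with bars for the exact 95% interval of counting error, and open diamonds for members in peaks of like extent where these held at least 200 counts. Dotted lines mark 1.5-fold. Hmgn3 is at 0.66 in peaks of like extent and at 0.70 in all its regions.

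The stromal genes themselves were little different. Of 16 stromal genes outside the rule, Lum was past 1.5-fold, with 134 counts from Enl-WT and 153 from Enl-T1, or 14.4 CPM for Enl-WT and 26.8 CPM for Enl-T1, a log2 difference of 0.89 (95% interval 0.40 to 1.39), beside 0.60 (0.41 to 0.80) in other nuclei. In the peak of like extent Lum had 94 and 76 counts and 0.36 (-0.29 to 1.01). Snai2, a mesenchymal repressor, was next highest at 0.45 (0.10 to 0.79), and Sfrp1, a secreted Wnt antagonist, the lowest at -0.35 (-0.67 to -0.04). Dcn, Twist1 and Tcf21 had intervals that included 0, at -0.15 (-0.50 to 0.20), -0.22 (-0.57 to 0.12) and -0.09 (-0.52 to 0.32). None of 7 cortical, 7 medullary, 7 smooth muscle and 6 pericyte genes with enough counts was past 1.5-fold. The pericyte genes were all below 0, with a median of -0.24, Rgs5 at -0.44 (-0.76 to -0.12) and Kcnj8, an ATP-sensitive potassium channel gene of pericytes, at -0.34 (-0.73 to 0.05). Tbx18, a factor of ureteric stroma, was at 0.44 (0.06 to 0.82) and Myh11, smooth muscle myosin, at -0.35 (-0.74 to 0.03). The furthest cortical genes were Rspo3, another Wnt agonist, at 0.34 (-0.03 to 0.71) and Smoc2, a matrix protein, at 0.25 (0.03 to 0.48).

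Genes of stroma to nephron signalling that the study singled out in its own results are not independent evidence of a direction. None of the 8 was past 1.5-fold, and their median was -0.03. Wnt5a, a Wnt ligand of stroma, had 402 counts from Enl-WT and 339 from Enl-T1, or 43.1 CPM for Enl-WT and 59.4 CPM for Enl-T1, the largest difference of the list at 0.47 (95% interval 0.16 to 0.77), beside 0.22 (0.12 to 0.32) in other nuclei, and its 3 regions were all of like extent. With members chosen without Ebf1 it was at 0.043. Among the sub-clusters Wnt5a was highest in sub-cluster 5, at 73.4 CPM, followed by sub-cluster 3 at 68.2 CPM. Sub-cluster 5 held 133 Enl-T1 members and 2 Enl-WT members, and its part in the pooled Wnt5a value was not tested. Within the 6 sub-clusters with at least 40 members of each library, Wnt5a was higher in Enl-T1 in 5 (-0.10 to 0.70). The counting interval in each of these 6 included no difference. Itga9, an integrin chain, was lower at -0.18 (-0.29 to -0.07). Meis1, a cofactor of Hox proteins, was at 0.11 (-0.04 to 0.27), Hoxa10 at -0.11 (-0.32 to 0.11), Hoxc10 at 0.04 (-0.26 to 0.34) and Tcf21 at -0.09 (-0.52 to 0.32). Pdgfra, at 0.31 (0.15 to 0.47), was also used by the rule.

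Hox genes, which set position along the body axis, were set side by side in members and in other nuclei, and no difference between these was tested. Of 20 Hox1 to Hox8 genes with enough counts, 1 was over 1.5-fold higher in Enl-T1 members, Hoxc8, with 159 counts from Enl-WT and 154 from Enl-T1 and 0.65 (95% interval 0.18 to 1.12), and in other nuclei it was at 0.74 (0.62 to 0.87). Hoxc4, a gene of the same Hox cluster, was at 0.19 (-0.04 to 0.42) in members and 0.64 (0.56 to 0.71) in other nuclei. Hoxd3 was at -0.32 (-0.52 to -0.12) in members and 0.29 (0.25 to 0.34) in other nuclei, and Hoxd4, which shares part of its window, at -0.18 (-0.43 to 0.06) and 0.41 (0.35 to 0.46). Hoxc4, Hoxd3 and Hoxd4 were outside the rule for named genes and were singled out after their values were seen. Of 10 Hox9 to Hox13 genes none was past 1.5-fold, with a median of -0.01, Hoxb9 at -0.27 (-0.68 to 0.12) and Hoxc13 at -0.26 (-0.62 to 0.08). Meis3, a Hox cofactor, was past the fold at 0.63 (0.21 to 1.06), with 197 counts from Enl-WT and 186 from Enl-T1, and at 0.27 (0.16 to 0.38) in other nuclei, while its peak of like extent had only 38 and 24 counts.

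Other pathways gave single genes. Among 11 Wnt ligands, Wnt8b was past the fold at 0.64 (0.17 to 1.10), beside 0.36 (0.25 to 0.47) in other nuclei, and the median was 0.14. Among 18 effectors, targets and inhibitors, Axin2 alone was past it and the median was 0.00. Other genes that Wnt signalling can switch on were at -0.19 (-0.34 to -0.04) for Nkd1, 0.09 (-0.28 to 0.45) for Lgr5 and 0.22 (0.02 to 0.42) for Znrf3. Notum, a secreted Wnt-inactivating enzyme, was the furthest below 0 at -0.53 (-1.11 to 0.02). Ror1 and Ror2, receptors of Wnt5a, were lower in Enl-T1 members at -0.25 (-0.39 to -0.11) and -0.16 (-0.29 to -0.04), and at 0.09 (0.05 to 0.14) and 0.10 (0.06 to 0.14) in other nuclei. None of 15 retinoic acid genes, 10 Hedgehog genes or 15 growth factor genes was past 1.5-fold. The furthest from 0 were Cyp26b1, a retinoic acid-degrading enzyme gene, at -0.27 (-0.63 to 0.08), Rdh10, an enzyme of retinoic acid synthesis, at -0.25 (-0.53 to 0.03), Smo, the Hedgehog transducer, at -0.33 (-0.63 to -0.04), Gas1, a Hedgehog coreceptor, at 0.21 (-0.01 to 0.44), Rspo3, given above, and Bmp4, a growth factor of periureteric stroma, at -0.31 (-0.58 to -0.05). Of 18 matrix genes, rule genes included, only Lum was past it. None of 9 stress and immediate early genes was, with Egr1 the furthest above 0 at 0.32 (0.12 to 0.53) and Fosl2 the furthest below at -0.22 (-0.41 to -0.02).

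Nephron progenitor markers lay above 0 within the members. All 7 of the 7 with enough counts were above 0, with a median of 0.23, beside -0.02 over all genes. Past 1.5-fold were 2, where 0.896% of all genes were past it upward. These 2 were Osr1, a factor of early intermediate mesoderm, with 104 counts from Enl-WT and 97 from Enl-T1 and 0.59 (95% interval 0.00 to 1.19), and Tmem100, with 141 counts from Enl-WT and 138 from Enl-T1 and 0.69 (95% interval 0.19 to 1.19). The minimum was 200 counts in both libraries together. Six2 was at 0.24 (-0.31 to 0.77) and Eya1, its partner, at 0.28 (-0.14 to 0.68). In other nuclei Osr1 was at 0.10 (-0.03 to 0.23), Tmem100 at 0.29 (0.16 to 0.42), Six2 at 0.00 (-0.10 to 0.09) and Eya1 at -0.02 (-0.11 to 0.06). The summed level of the 8 markers in members was 267 CPM for Enl-WT and 319.6 for Enl-T1. Sub-cluster 4, which had the highest sum of these markers, held 9.16% of the Enl-WT members and 19.7% of the Enl-T1 members. Osr1 and Tmem100 stood at 12.3 and 18.9 CPM there. In sub-cluster 5, which was 98.5% Enl-T1, they stood at 23.0 and 23.9 CPM. Of the 9, Osr1 was highest in sub-cluster 5, and Tmem100 in sub-cluster 3 at 30.1 CPM. The part of these sub-clusters in the values was not tested. Within the 6 sub-clusters with enough members Osr1 was above 0 in 5 and Tmem100 in 4. Of the ureteric, endothelial, immune, erythroid, podocyte, tubule and crest lists, no gene with enough counts was past 1.5-fold; Podxl, a podocyte and endothelial sialomucin gene, was furthest at -0.54 (-0.99 to -0.10).

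Single regions spread more widely than genes. Of 39553 regions with at least 100 counts in members, 467 (1.18%) were over 2-fold higher and 752 (1.9%) over 2-fold lower in Enl-T1, and without sub-cluster 5 the counts were 338 and 699. Only 18.6% of the higher (15.2 to 22.5) and 24.2% of the lower regions (21.2 to 27.4) lay within 2 kb of a transcription start, where 46.5% of all tested regions lay. Their median counts in members, 128 and 133, were below the 195 of all regions. In other nuclei the same regions had a median log2 difference of 0.79 and -0.41, beside 0.01 for all regions. Enl-WT peaks covered over 1.5 times the length of Enl-T1 peaks in 27.5% of the lower regions and 7.21% of all.

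Named regions were the 4 highest and 4 lowest with at least 200 counts. An intronic region of the collagen gene Col6a6 at chr9:105736588-105738037 had 67 counts (7.18 CPM) from Enl-WT and 139 (24.3 CPM) from Enl-T1, a log2 difference of 1.75 (1.14 to 2.39), beside 1.57 (1.34 to 1.80) in other nuclei, with peaks over 1025 bases for Enl-WT and 1235 for Enl-T1. An intergenic region at chr2:139821142-139822430, 143 kb from Ism1, had 79 counts (8.47 CPM) from Enl-WT and 153 (26.8 CPM) from Enl-T1, or 1.63 (1.06 to 2.22), and 2.31 (2.13 to 2.50) in other nuclei, with peaks over 1289 bases for Enl-WT and 914 for Enl-T1. An Ebf1 intron region at chr11:44797908-44798853 had 101 counts (10.8 CPM) from Enl-WT and 187 (32.7 CPM) from Enl-T1, or 1.62 (1.11 to 2.14), beside 1.42 (1.15 to 1.70) in other nuclei, and was itself among the marker peaks. The region over the start of Kbtbd11 at chr8:15026934-15028569, which holds exon and UTR sequence, had 72 counts (7.72 CPM) from Enl-WT and 128 (22.4 CPM) from Enl-T1, or 1.54 (0.93 to 2.17), beside 1.08 (0.95 to 1.22) in other nuclei, with peaks over 781 bases for Enl-WT and 1318 for Enl-T1.

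Of the lowest, an intergenic region at chr17:45930890-45933958, 87.4 kb from Vegfa, had 188 counts (20.2 CPM) from Enl-WT and 29 (5.08 CPM) from Enl-T1, or -2.04 (-2.97 to -1.22), beside -1.49 (-1.68 to -1.31) in other nuclei, with peaks over 3069 bases for Enl-WT and 873 for Enl-T1. The region over the start of Neurl1a at chr19:47178004-47179860 had 201 counts (21.6 CPM) from Enl-WT and 33 (5.78 CPM) from Enl-T1, or -1.94 (-2.80 to -1.17), beside -1.69 (-1.87 to -1.52) in other nuclei, with peaks over 1857 bases for Enl-WT and 468 for Enl-T1. An intronic region of Akap2 at chr4:57846701-57847486 had 185 counts (19.8 CPM) from Enl-WT and 32 (5.60 CPM) from Enl-T1, or -1.82 (-2.68 to -1.04), and -0.93 (-1.14 to -0.73) in other nuclei, with peaks over 786 bases for Enl-WT and 576 for Enl-T1. An intergenic region 19.98 kb from Dad1 at chr14:54232792-54233932 had 179 counts (19.2 CPM) from Enl-WT and 31 (5.43 CPM) from Enl-T1, or -1.78 (-2.65 to -1.01), and -0.38 (-0.54 to -0.22) in other nuclei, with peaks over 1141 bases for Enl-WT and 925 for Enl-T1. The middle 300 bases of the 2 highest regions outside marker windows and of the 2 lowest with the least difference in covered length are given (GRCm38, forward strand), with capitals as above.
Col6a6 intron, higher in Enl-T1, chr9:105737163-105737462: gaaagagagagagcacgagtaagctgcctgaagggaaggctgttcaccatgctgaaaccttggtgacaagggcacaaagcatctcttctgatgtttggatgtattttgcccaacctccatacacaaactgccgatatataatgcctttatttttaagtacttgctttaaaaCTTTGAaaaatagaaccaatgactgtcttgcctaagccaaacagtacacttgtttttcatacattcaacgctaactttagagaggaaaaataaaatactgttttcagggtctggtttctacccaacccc
Ism1 side, higher in Enl-T1, chr2:139821637-139821936: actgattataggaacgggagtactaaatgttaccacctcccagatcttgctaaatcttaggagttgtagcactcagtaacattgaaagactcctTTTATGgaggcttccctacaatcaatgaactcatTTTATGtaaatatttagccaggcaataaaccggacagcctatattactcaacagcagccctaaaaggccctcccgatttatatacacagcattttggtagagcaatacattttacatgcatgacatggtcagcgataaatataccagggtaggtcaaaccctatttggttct
Akap2 intron, lower in Enl-T1, chr4:57846944-57847243: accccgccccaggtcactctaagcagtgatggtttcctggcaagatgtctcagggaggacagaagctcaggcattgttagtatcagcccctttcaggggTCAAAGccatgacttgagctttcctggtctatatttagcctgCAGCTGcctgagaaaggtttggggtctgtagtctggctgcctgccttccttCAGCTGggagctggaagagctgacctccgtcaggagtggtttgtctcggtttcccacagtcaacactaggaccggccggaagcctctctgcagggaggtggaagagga
Dad1 side, lower in Enl-T1, chr14:54233213-54233512: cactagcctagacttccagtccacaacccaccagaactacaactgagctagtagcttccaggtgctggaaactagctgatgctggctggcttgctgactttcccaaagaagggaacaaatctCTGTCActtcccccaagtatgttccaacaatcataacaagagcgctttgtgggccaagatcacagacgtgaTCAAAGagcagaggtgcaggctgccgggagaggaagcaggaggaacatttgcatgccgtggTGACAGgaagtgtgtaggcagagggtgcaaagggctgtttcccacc

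Motif letters were counted on both strands in the middle 300 bases of the regions. The motifs were the posterior Hox core TTTATG, Pbx-Hox TGATTTAT, AGATAA for GATA factors, AP-1 TGANTCA, TCF/LEF CTTTGA, an E-box CAGCTG, TEAD GGAATG, EBF CCCNNGGG, forkhead GTAAACA, MEIS TGACAG and the NFI palindrome. The Pbx-Hox letters contain TTTAT, which is also the start of the Hox core. The sets differed in base composition, with 54.8% G and C in all regions, 44.4% in those higher in members, 45.5% in those higher and 50.2% in those lower in Enl-T1. The values that follow are therefore for regions over 2 kb from a start whose window held 40 to 50% G and C, with exact binomial intervals that treat regions as separate.

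Regions higher in members carried the E-box letters, the sequence that basic helix-loop-helix factors such as TWIST1 and TCF21 can bind, in 35.5% (33.8 to 37.2) of 3007 regions, against 27.9% (27.0 to 28.9) of all 9510. MEIS letters were in 28.8% (27.2 to 30.5) against 25.3% (24.4 to 26.2), and TEAD letters in 23.6% (22.1 to 25.2) against 21.3% (20.5 to 22.1). The EBF letters, for the family of the marker Ebf1, were in 8.18% (7.23 to 9.22) against 7.29% (6.77 to 7.83). The Hox core was in 30.9% (29.2 to 32.6) against 28.7% (27.8 to 29.6) here, whereas over all regions without regard to composition the shares were 31.6% and 15.8%. AP-1 letters were in 10.4% (9.37 to 11.6) against 10.4% (9.83 to 11.1).

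Regions higher and lower in Enl-T1 differed in the TEAD letters, the sequence of the factors of Hippo signalling. They were in 32.8% (27.2 to 38.8) of 268 regions lower in Enl-T1 and in 9.55% (5.85 to 14.5) of 199 regions higher in Enl-T1, around the 21.3% of all regions. Among regions whose covered lengths in the 2 libraries were within 1.5 times of each other, the shares were 36.8% (30.1 to 43.8) and 10.2% (6.23 to 15.4), with 21.7% (20.8 to 22.5) of all. The posterior Hox core went the other way, at 39.2% (32.4 to 46.3) of the higher and 23.5% (18.6 to 29.0) of the lower regions. MEIS letters were in 32.7% (26.2 to 39.7) and 23.9% (18.9 to 29.4), and E-box letters in 24.6% (18.8 to 31.2) and 22.8% (17.9 to 28.3). The shares for GATA, AP-1, TCF/LEF, EBF, forkhead and Pbx-Hox had overlapping intervals between higher and lower regions, and the NFI palindrome was in 0 of either. Of all regions, 18.0% held the GATA, 23.4% the TCF/LEF, 6.73% the forkhead, 4.71% the Pbx-Hox and 0.137% the NFI letters. A match of letters is not a bound site, and what the sets share was not tested for a cause.

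**Figure D5:**
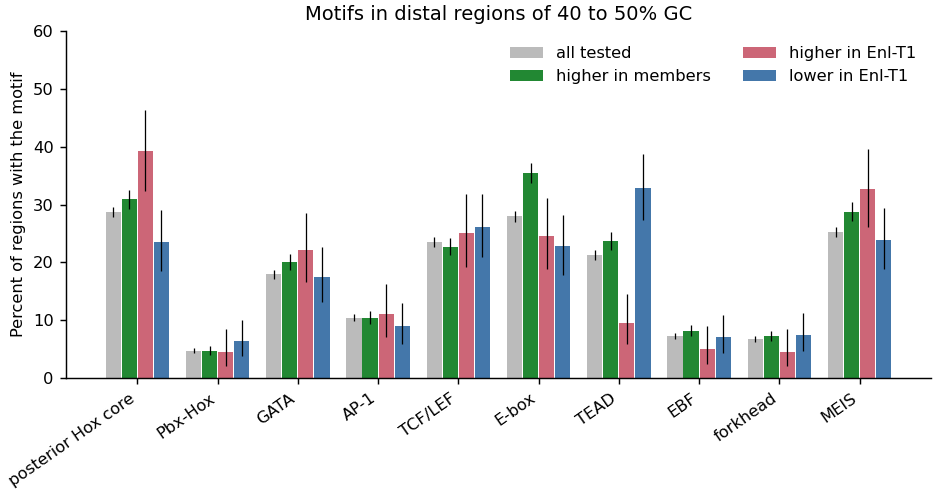
Percent of regions (y axis) whose middle 300 bases hold each motif (x axis), among regions over 2 kb from a start with 40 to 50% G and C, for all tested regions, those over 2-fold higher in members, and those over 2-fold higher or lower in Enl-T1 members; bars are exact 95% binomial intervals. TEAD letters are most frequent in regions lower in Enl-T1 and least in regions higher in Enl-T1.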

How the data were processed

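Single-nucleus ATAC-seq counts of 2 kidney libraries, 1 for Enl-WT and 1 for Enl-T1, were analysed. Per the submitters' processing notes the authors ran Cell Ranger ATAC 2.1.0 on mm10, and they deposited counts per peak and barcode, with peaks called in each library. Most values were 2, both ends of a fragment, so intervals were computed on counts divided by 2. The libraries held 9628 and 13376 barcodes with medians of 14698 and 8529 counts. No doublet caller was run; members passing another set's rule were left out in 1 alternative.

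Genes were taken from GENCODE M21. Counts were summed over members in shared regions and scaled to CPM, and ratios were taken per library with exact binomial intervals. Genes named were the 10 with the highest lower log2 ratio to other nuclei (at least 200 counts), the 8 highest and 8 lowest in Enl-T1 (at least 400 counts), listed genes past 1.5-fold or the furthest of each list, and a few singled out for their role after their values were seen; regions were the 4 highest and 4 lowest (at least 200 counts). Members were clustered by latent semantic indexing (components 2 to 20, 15 neighbours, resolution 0.6) with scipy 1.17.1 and leidenalg 0.10.2 in Python 3.11.15. The comparison sets were the top 5%, 10% and 15% by endothelial, ureteric and nephron progenitor markers. Scripts were tested on simulated data. Members and lists were chosen with earlier results of these data known. The study's filters on fragments, blacklisted regions and start-site signal need the fragments and were not applied. Values of some listed genes are not reported here. Alternatives varied the rule, scaling, depth, windows, filters and composition.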

Additional observations from a re-analysis of the deposited data

Results flagged for a closer look

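Genes for which the members went one way and the other nuclei of the same libraries the opposite way, with both counting intervals clear of 0, were singled out. The difference was not tested, since each group had 1 library. Twist2 was at -0.31 in members and 0.25 in other nuclei (log2 of Enl-T1 over Enl-WT). Cspg4, a pericyte proteoglycan gene, was at -0.29 and 0.10. Hoxd3 was at -0.32 and 0.29. Ror1 was at -0.25 and 0.091, and Ror2 at -0.16 and 0.10. In peaks of like extent the values in members were -0.18 for Twist2, -0.21 for Cspg4, -0.21 for Hoxd3, -0.27 for Ror1 and -0.16 for Ror2. Zfp583 differed between members and other nuclei by 0.45 in Enl-WT and by -0.41 in Enl-T1, from 1 region with 1085 bases covered by Enl-WT peaks and 858 by Enl-T1 peaks.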

How the results depend on the processing

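No paired analysis was possible because each group had 1 library. Values are Enl-WT then Enl-T1 for member shares, and higher then lower in Enl-T1 for genes and regions; a cause was not tested where none is given. Member shares were 1.07% and 2.03% for the top 15% of barcodes with 4 markers (regions 49 and 50; 121 genes over 1.5-fold higher in members; 4 sub-clusters, by construction from fewer nuclei), 8.72% in Enl-WT with the cut within each library, 5.03% and 4.57% at 10% (regions 277 and 441), 9.50% and 5.96% at 20%, 1.10% and 0.197% with 6 markers (genes higher 54; regions 36 and 181; 59 genes higher in members; 3 sub-clusters), 4.68% and 1.72% without Ebf1 (genes lower 314; regions 172 and 476; 197 genes higher in members) and 8.08% and 5.93% from 6000 counts. Enl-T1 had the larger share only under the first of these. Thinned members gave genes 43 and 85 and regions 26 and 48, by construction with fewer tested. Peaks of like extent gave 89 genes lower and regions 272 and 398. Start-site windows gave 200 genes higher in members. No minimum gave genes 612 and 611 and regions 8922 and 8696; minima of 1000 and 400 gave 1 and 9, 3 and 10, and 106 genes higher in members, so most calls sat at low counts. Weighting sub-clusters equally left only sub-cluster 3 at 100 members in each library (genes 43 and 79, regions 21 and 34). Chosen after seeing the data, weighting at 40 members gave 213 genes lower and 284 regions higher, shares were 6.42% and 4.82% without sub-clusters 7 to 9 and 4.27% in Enl-T1 without sub-cluster 5. Log2 values that turned were Atp10b -0.55, Ccr7 -0.70 and Hoxc8 -1.38 with 6 markers (23 Enl-T1 members), Vps26b and Ncapd3 -0.59, Zfp644 0.32 and Sucnr1 -0.027 in peaks of like extent, Tecta -0.61 around start sites, and A530016L24Rik 0.034 and Wnt8b -0.45 in sub-cluster 3. Of the remaining values of named genes, 682 moved by less than their counting interval and 61 by more, and no further value past 1.5-fold changed sign. The number of sub-clusters was 6 to 11 at resolutions 0.3 and 1.0, and in each setting 1 group of 87 to 174 members was 97.7 to 99.2% Enl-T1.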
